A study of Mus musculus with 6 samples.

Results

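The eukaryotic translation initiation factors, the proteins that load ribosomes onto mRNA, were examined at transcript level in the cortex of mice lacking HtrA2. Members were all probe sets (the groups of oligonucleotides that together read 1 transcript) annotated to a single gene symbol that begins with Eif and a digit from 1 to 6. The eIF2 subunits, the eIF2B subunits, the eIF2 kinases and Eif4ebp1 were left out. This gave 98 of the 45037 probe sets tested and 34 of the 18193 genes named by them. A further 6 Eif probe sets carry several symbols and were left out. The HtrA2 KO group held 3 arrays of cortex from HtrA2 knockout mice, and the WT group held 3 arrays of cortex from wild type littermates. All mice were 29 days old after birth, and neither group carried a drug or another allele according to the labels. HtrA2, also called Omi, is a protease that sits between the mitochondrial membranes. The labels name neither the strain nor the part of the gene that was deleted. Whether every array is of a different animal is not in the labels, and p-values here cover the spread among these arrays, which may be technical. Values are levels on the log2 scale, given for replicates 1, 2 and 3 in that order, and n = 3 in each group throughout. A log2 fold change is HtrA2 KO minus WT and ± gives its standard error, or the SD where a mean level is given. The test is limma's, fitted to all 45037 probe sets and adjusted over them by the Benjamini-Hochberg procedure, and a probe set is said to rise or fall only at an adjusted p under 0.05. Cortex is bulk tissue, so a change in the number of cells of a type and a change in RNA per cell cannot be told apart.

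Initiation begins when eIF1, eIF1A, eIF3, eIF5 and the eIF2 complex with initiator tRNA assemble on the small ribosomal subunit. The eIF4 factors bring that complex to the capped end of an mRNA: eIF4E holds the cap, eIF4G is the scaffold, and eIF4A is an RNA helicase stimulated by eIF4B and eIF4H. eIF5B then joins the large subunit, and eIF6 keeps the subunits apart until they are needed. In neurons, initiation is regulated at eIF2 by stress kinases and at eIF4E by binding proteins under the control of mTOR. Many mRNAs of the translation machinery, in human cells including those of several eIF3 subunits, begin with a run of pyrimidines, the terminal oligopyrimidine tract, through which mTOR regulates their translation.

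The sequences around the annotated transcript starts of the genes that rose are shown so that the letters of members that changed together can be compared, and Eif3l, which did not pass the test, is shown for its long pyrimidine run. They are RefSeq sequences of build GRCm38.p6, printed on the gene's strand from 60 bases before the start. The 80 bases printed end with the first 20 of the annotated transcript. Capitals mark 2 features: a run of 8 or more C or T within 10 bases of the start, and the letters CCGGAA on either strand (TTCCGG where it lies on the other strand), the core of sites bound by ETS transcription factors. Bases of a run that lie further than 10 from the start stay in small letters.
Eif3c, chr7:126566347-126566426, minus strand: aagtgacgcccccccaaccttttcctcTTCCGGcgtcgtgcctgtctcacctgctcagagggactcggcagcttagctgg
Eif3f, chr7:108934355-108934434, plus strand: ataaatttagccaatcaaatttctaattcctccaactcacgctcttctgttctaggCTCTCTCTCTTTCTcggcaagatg
Eif4b, chr15:102073713-102073792, plus strand: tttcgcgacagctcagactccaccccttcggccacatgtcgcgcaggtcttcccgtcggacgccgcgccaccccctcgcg
Eif1ad, chr19:5366753-5366832, plus strand: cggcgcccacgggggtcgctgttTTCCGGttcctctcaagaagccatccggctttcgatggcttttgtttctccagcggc
Eif3l, chr15:79075163-79075242, plus strand: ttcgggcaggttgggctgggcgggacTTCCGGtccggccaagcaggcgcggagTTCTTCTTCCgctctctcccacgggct

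The pyrimidine run of Eif3f starts 4 bases before the annotated start and fills 14 bases up to the end of the searched stretch. It runs on past that end, so its full length is greater. The run of Eif3l is 10 bases long and starts 7 bases before the annotated start. Annotated starts can lie some bases from those used in cortex. The RefSeq table of promoter sequences held 39 windows of 300 bases for 27 of the 34 genes. It had no entry for Eif1a, Eif3e, Eif3h, Eif3i, Eif4e3, Eif4g2 and Eif6. A run of 8 or more C or T near a start was found in 4 of the 27 genes (14.8%), against 8.71% of all 27025 genes in the table. These were Eif3f, which rose, and Eif3l, Eif4e and Eif4enif1, which did not pass the test. CCGGAA stood on either strand in 16 of the 27 genes (59.3%), against 16.7% of all genes, and it was chosen after the sequences were seen. Among the genes that rose, Eif3c, Eif3f and Eif1ad held it within the 300 bases and Eif4b did not. Members that did not pass the test held it too, for example Eif3d, Eif3m and Eif4a2. TGATGNAA, the core of the element bound by ATF4, was searched on both strands and was found in 0 of the 27 genes, against 4.51% of all genes. With TGATGNAA in 0 of these genes, an overlap between it and CCGGAA could not arise in the members. The counts are descriptions of letters in a window and say nothing of whether a factor binds there.

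The libraries were checked on Htra2 first. One of its probe sets read 6.42, 7.08 and 6.45 in HtrA2 KO arrays, against 8.89, 8.86 and 9.02 in WT arrays, and fell by 2.27 ± 0.17 (adjusted p = 0.00227). The other read 9.35, 9.35 and 9.27 in HtrA2 KO, against 8.23, 8.12 and 8.28 in WT, and rose by 1.11 ± 0.08 (adjusted p = 0.00169). The labels place neither probe set inside or outside the deletion. HtrA2 KO replicate 2 correlated least with the other arrays (mean r of 0.993, against 0.994 to 0.995 for the rest) and had the lowest array weight when weights were estimated (0.25, against 0.889 to 2.62). Y-linked transcripts were low and Xist high in HtrA2 KO replicate 3 and WT replicate 1, 1 array in each group. Marker lists of the cell types of cortex also moved. Of 9 neuron markers 0 rose and 2 fell, with a list mean of 12.06 to 12.12 in HtrA2 KO arrays against 12.32 to 12.35 in WT arrays. The counts were 1 rise and 3 falls of 8 astrocyte markers (10.77 to 10.87 in HtrA2 KO, against 10.99 to 11.03 in WT), 0 and 3 of 8 microglia markers (8.59 to 8.67 against 8.84 to 9.06) and 0 and 1 of 7 oligodendrocyte markers (11.53 to 11.67 against 11.79 to 11.96). No endothelial or mural marker of 8 passed (8.72 to 8.86 in HtrA2 KO, against 8.68 to 8.79 in WT), nor any of 8 meningeal markers (8.24 to 8.90 against 8.04 to 8.30), and 1 of 3 measured blood markers fell (5.01 to 5.42 against 5.60 to 5.66). RMA gives no marker a level of 0. The part of these shifts in the results was not tested.

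Transcripts of 5 member genes were higher in HtrA2 KO cortex. These were the eIF3 subunits Eif3c, Eif3e and Eif3f, the helicase cofactor Eif4b, and Eif1ad. Eif1ad is a member by its symbol and encodes a protein with an eIF1A-like domain. The rises were between 1.28-fold and 1.56-fold. The test called 9 of the 98 member probe sets higher (9.18%) and 0 lower, leaving 89 without a call. Over all tested probe sets 0.884% rose and 0.884% fell. By gene, 5 of 34 (14.7%) rose at 1 or more probe sets, against 1.64% of all named genes. The same 5 rose at the probe set with the highest mean of each gene, against 1.39% of all named genes. At an unadjusted p under 0.05, 32 member probe sets were higher (32.7%, against 8.33% of all probe sets) and 4 were lower (4.08%, against 8.55%). Limma-trend with robust moderation called 17 members higher and 0 lower, and over all probe sets it called 2.04% higher and 1.89% lower. Members are mostly bright: 77 of the 98 lay above the median brightness of all probe sets. Of these 77, 9 rose (11.7%), against 1.6% of all probe sets above the median.

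Groups that did not overlap were more often higher than lower in HtrA2 KO. All 3 HtrA2 KO arrays lay above all 3 WT arrays at 39 member probe sets (39.8%, against 11.6% of all probe sets), and all 3 lay below at 10 (10.2%, against 11.6%). The other 49 overlapped. At the probe set with the highest mean of each gene, 20 of 34 genes had HtrA2 KO arrays entirely above WT (58.8%, against 15.6% of all named genes). They lay entirely below WT at 3 of the 34, against 2331 of all 18193 named genes. The median log2 fold change at these probe sets was 0.20 over the 34 genes, against 0.02 over all named genes, with members between -0.29 and 0.58.

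**Figure D1:**
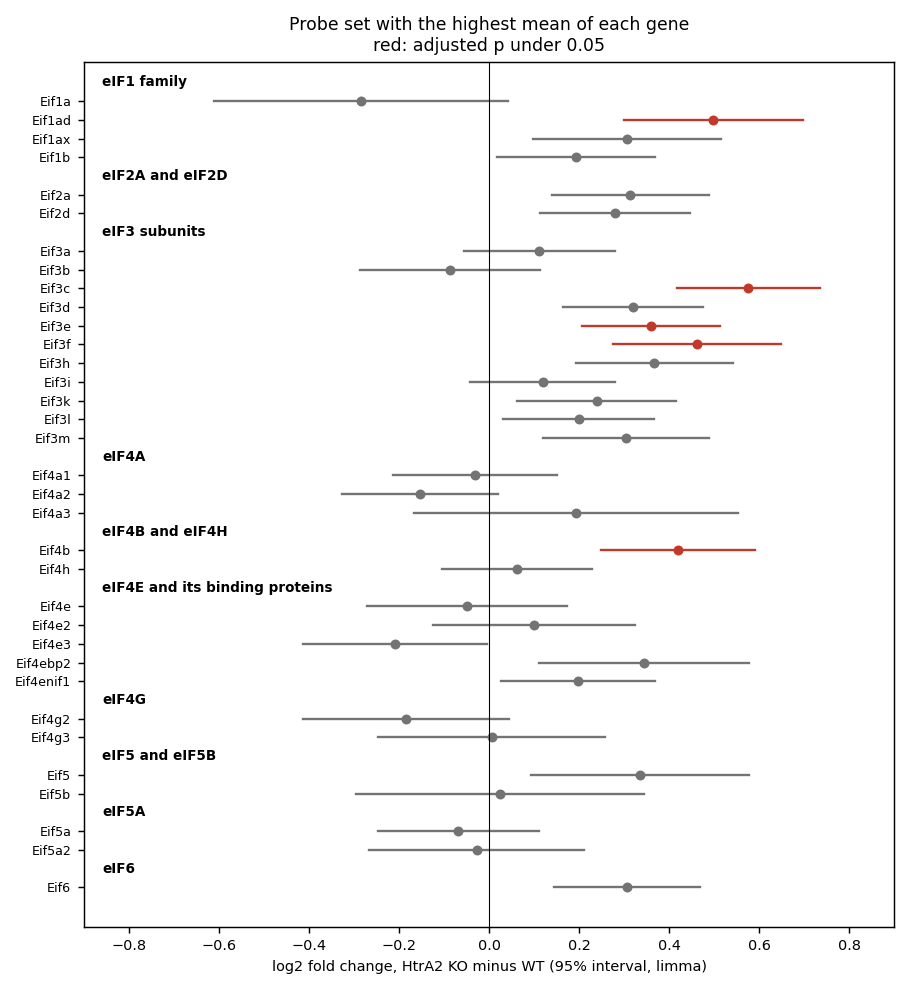
Log2 fold change (HtrA2 KO minus WT, horizontal axis) with its 95% interval from limma for the probe set with the highest mean of each of the 34 genes, grouped by role; red marks an adjusted p under 0.05. The eIF3 subunits run from -0.09 to 0.58, with 10 of 11 above 0, while the eIF4A, eIF4G and eIF5A genes lie between -0.18 and 0.19.

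eIF3 is the largest initiation factor and the platform on which the other factors meet on the small subunit. Of its 11 subunits measured here, 3 rose (27.3%, against 1.64% of all named genes), 0 fell and 8 did not pass. All 3 HtrA2 KO arrays lay above all WT arrays at 19 of the 27 eIF3 probe sets (70.4%) and below them at 1 (3.7%). Over all probe sets the share was 11.6% each way. Eif3c, a subunit that contacts eIF1 and eIF5, rose at 3 of its 4 probe sets. At 1456374_x_at the level was 12.66, 12.62 and 12.58 in HtrA2 KO arrays, against 12.01, 12.06 and 12.06 in WT arrays. The HtrA2 KO arrays lay above every WT array, with no overlap, and the change was 0.58 ± 0.07 (1.49-fold, adjusted p = 0.0131). At 1456083_x_at the level was 11.98, 11.89 and 12.07 in HtrA2 KO, against 11.30, 11.33 and 11.39 in WT, a rise of 0.64 ± 0.08 (1.56-fold, adjusted p = 0.0139). At 1415858_at it was 12.38, 12.27 and 12.39 in HtrA2 KO, against 11.80, 11.77 and 11.76 in WT, a rise of 0.57 ± 0.07 (1.48-fold, adjusted p = 0.0145). The remaining probe set, 1415859_at, differed by 0.47 ± 0.10 without overlap but missed the threshold (adjusted p = 0.0586). All 4 probe sets of Eif3c thus had HtrA2 KO arrays above WT, by 0.47 to 0.64.

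Eif3f, of the MPN domain pair of eIF3, has 1 probe set. Its level was 12.45, 12.38 and 12.59 in HtrA2 KO arrays, against 11.96, 12.02 and 12.05 in WT arrays. The groups did not overlap, and HtrA2 KO replicate 2 was the nearest to WT; the rise was 0.46 ± 0.08 (1.38-fold, adjusted p = 0.0375). Eif3e, a PCI domain subunit, rose at 2 of its 4 probe sets. At 1434523_x_at the level was 12.10, 12.15 and 12.20 in HtrA2 KO, against 11.74, 11.70 and 11.78 in WT, a rise of 0.41 ± 0.07 (1.33-fold, adjusted p = 0.0361). At 1460432_a_at it was 12.47, 12.44 and 12.47 in HtrA2 KO, against 12.12, 12.10 and 12.08 in WT, a rise of 0.36 ± 0.07 (1.28-fold, adjusted p = 0.0434). Neither pair of groups overlapped. Another bright probe set of Eif3e, 1439268_x_at, read 11.99, 11.66 and 12.07 in HtrA2 KO, against 11.59, 11.60 and 11.62 in WT, so that HtrA2 KO replicate 2 lay just above WT (0.30 ± 0.11, adjusted p = 0.224). The dim 1419822_at differed by -0.01 ± 0.09, with overlapping groups.

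The subunits that share PCI and MPN domains, Eif3a, Eif3c, Eif3e, Eif3f, Eif3h, Eif3k, Eif3l and Eif3m, form the octamer at the centre of eIF3. At the probe set with the highest mean, all 8 had HtrA2 KO arrays entirely above WT, against 15.6% of all named genes. The median log2 fold change was 0.33, with a lowest of 0.11 (Eif3a) and a highest of 0.58 (Eif3c). At these probe sets 3 of the 8 rose, against 1.39% of all named genes. Eif3h, the MPN partner of Eif3f, came close to the threshold (0.37 ± 0.08, adjusted p = 0.0584), and Eif3m differed by 0.30 ± 0.08 (adjusted p = 0.106). Eif3k and Eif3l differed by 0.24 ± 0.08 and 0.20 ± 0.07 (adjusted p = 0.165 and 0.218). The subunits Eif3g and Eif3j had no member probe set. Of the 3 subunits measured outside the octamer, Eif3d, which can bind the cap of some mRNAs, differed by 0.32 ± 0.07 (adjusted p = 0.0629). Its level was 11.29, 11.29 and 11.30 in HtrA2 KO, against 10.93, 10.99 and 11.00 in WT. Eif3i and Eif3b, the WD40 subunits, differed by 0.12 ± 0.07 and -0.09 ± 0.09, and the Eif3b groups overlapped. Whether the octamer and the outer subunits differ from each other was not tested.

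**Figure D2:**
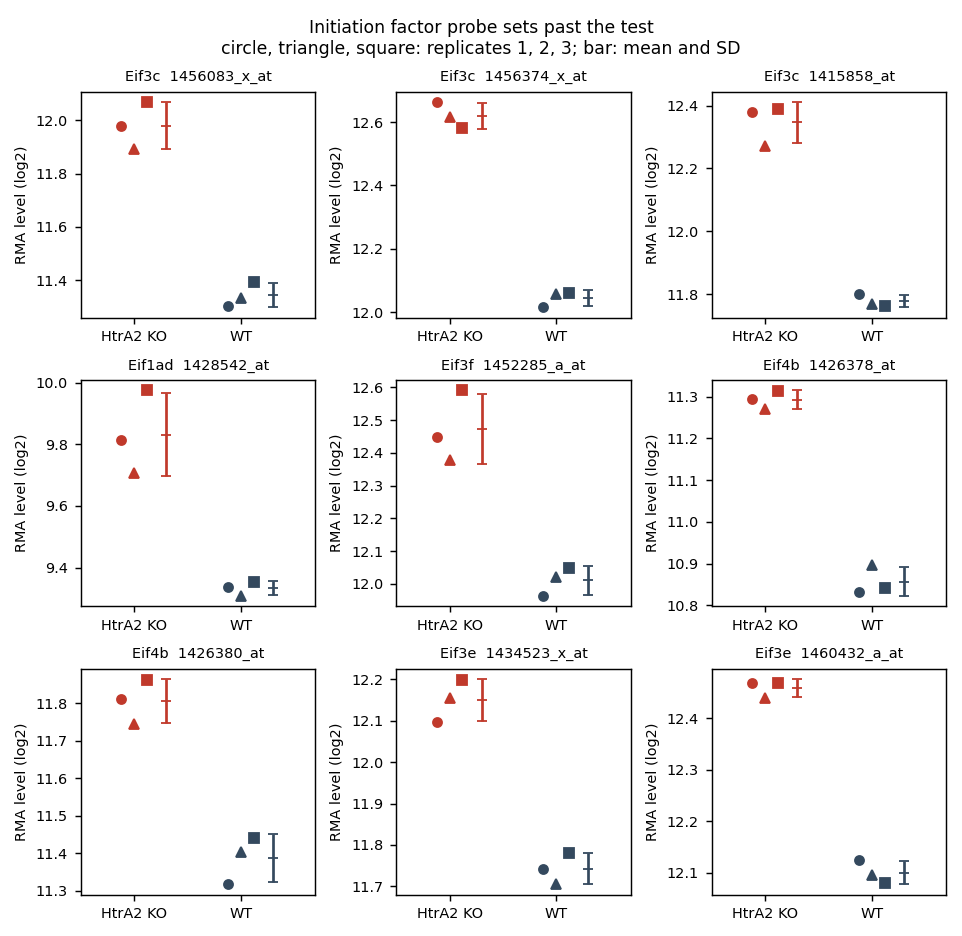
RMA level (log2, vertical axes, each with its own range) of the 9 member probe sets that rose, for the 3 HtrA2 KO arrays (red, left) and the 3 WT arrays (dark, right) of each; circles, triangles and squares are replicates 1, 2 and 3, and bars are mean and SD. In all 9 the lowest HtrA2 KO array lies above the highest WT array, by the most at Eif3c.

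Among the eIF4 factors measured as members, the rises were limited to Eif4b, which stimulates the helicase eIF4A. At 1426378_at its level was 11.29, 11.27 and 11.31 in HtrA2 KO arrays, against 10.83, 10.90 and 10.84 in WT arrays. The groups were tight and apart, and the rise was 0.44 ± 0.07 (1.35-fold, adjusted p = 0.0267). At 1426380_at it was 11.81, 11.74 and 11.86 in HtrA2 KO, against 11.32, 11.40 and 11.44 in WT, a rise of 0.42 ± 0.07 (1.34-fold, adjusted p = 0.0385). The remaining probe set, 1426379_at, differed by 0.35 ± 0.14 with overlapping groups (adjusted p = 0.243). Eif4h, the related cofactor of eIF4A, has 6 probe sets, none past the test, between -0.23 and 0.10. The -0.23 ± 0.08 (adjusted p = 0.207) belongs to the dim 1445746_at, and the brightest of the 6 differed by 0.06 ± 0.07, with a 95% interval from -0.10 to 0.23.

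The helicases themselves did not pass, and 0 of their 5 probe sets had an unadjusted p under 0.05. The 3 probe sets of Eif4a1 differed by -0.03, 0.08 and 0.01, all with overlapping groups. Eif4a2, its paralog, read 13.28, 13.15 and 13.23 in HtrA2 KO arrays, against 13.44, 13.33 and 13.34 in WT arrays. Its HtrA2 KO arrays lay below every WT array, but the difference of -0.15 ± 0.08 was small (adjusted p = 0.356). Eif4a3, the helicase of the exon junction complex, differed by 0.19 ± 0.16 at a dim probe set. Of the scaffolds, Eif4g1 had no member probe set and so was not seen here. The 9 probe sets of Eif4g2, which encodes the eIF4E-independent scaffold DAP5, and Eif4g3 lay between -0.18 and 0.23. Of these, 0 passed limma's test and 0 had an unadjusted p under 0.05. The smallest p of the group belonged to the dim 1440571_at of Eif4g3 (-0.17 ± 0.09, adjusted p = 0.386).

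Cap-binding proteins and their partners had 0 of 17 probe sets past the test by limma. At an unadjusted p under 0.05, 3 were higher and 2 lower, against 8.33% and 8.55% of all probe sets. Eif4e, the cap-binding protein, had its 4 probe sets between -0.05 and 0.02, all with overlapping groups. At 1423220_at it read 10.28, 10.30 and 10.27 in HtrA2 KO and 10.26, 10.27 and 10.28 in WT (0.01 ± 0.07, 95% interval from -0.14 to 0.17). Eif4e3, a divergent cap-binding paralog, was the 1 gene of the group lower at both of its probe sets without overlap. At 1417978_at it read 7.83, 7.91 and 7.87 in HtrA2 KO, against 8.07, 8.14 and 8.24 in WT (-0.28 ± 0.08, adjusted p = 0.112). Eif4ebp2, which encodes an abundant eIF4E-binding repressor of brain, differed by 0.34 ± 0.10 at its brightest probe set (adjusted p = 0.136) and by -0.15 to 0.07 at the other 4. Eif4enif1, the eIF4E transporter, differed by 0.20 ± 0.07 (adjusted p = 0.23). Eif4e2, a cap-binding protein that represses translation, ranged from -0.17 to 0.23 over 5 probe sets.

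In the eIF1 family, Eif1ad rose at 1 of its 2 probe sets. At 1428542_at the level was 9.81, 9.71 and 9.97 in HtrA2 KO arrays, against 9.34, 9.31 and 9.35 in WT arrays. The HtrA2 KO arrays were spread more widely than WT but lay well above it, and the rise was 0.50 ± 0.09 (1.41-fold, adjusted p = 0.0361). The other, 1455341_at, read 8.37, 8.59 and 8.23 in HtrA2 KO, against 8.50, 8.43 and 8.51 in WT. Its groups overlapped, and the difference was -0.08 ± 0.10 (adjusted p = 0.757). Eif1a and the X-linked Eif1ax encode eIF1A, which promotes scanning for the start codon. The 2 probe sets of Eif1a parted, with 0.35 ± 0.07 at 1424344_s_at (adjusted p = 0.0521) and -0.29 ± 0.14 at 1424343_a_at (adjusted p = 0.367). At 1424343_a_at HtrA2 KO replicate 2 was at 9.23, while replicates 1 and 3 were at 9.83 and 9.65 and WT at 9.83 to 9.90. Eif1ax differed by 0.31 ± 0.09, -0.11 ± 0.07 and -0.18 ± 0.08 at its 3 probe sets. Eif1b, a paralog of the scanning factor eIF1, differed by 0.19 ± 0.08 (adjusted p = 0.251). Eif1 itself had no member probe set.

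The factors that act beside or after eIF2 had 0 of 17 probe sets past the test by limma. At an unadjusted p under 0.05, 7 were higher and 0 lower, against 8.33% and 8.55% of all probe sets. Eif2a encodes an initiator tRNA carrier distinct from the alpha subunit of eIF2. At its brightest probe set it read 9.59, 9.41 and 9.51 in HtrA2 KO, against 9.22, 9.18 and 9.17 in WT (0.31 ± 0.08, adjusted p = 0.087). Eif2d, which can also deliver tRNA to the small subunit, differed by 0.28 ± 0.07 at its brightest probe set (adjusted p = 0.101), and the HtrA2 KO arrays lay above WT at 3 of its 6 probe sets. Eif5, which triggers GTP hydrolysis by eIF2, had its HtrA2 KO arrays above WT at 4 of 5 probe sets, with differences of 0.23 to 0.33 and a smallest adjusted p of 0.114. That value came from 1454664_a_at, with 11.79, 11.98 and 11.91 in HtrA2 KO, against 11.66, 11.60 and 11.51 in WT (0.31 ± 0.08). The remaining probe set of Eif5 differed by -0.15 ± 0.10. Eif5b, for joining of the subunits, differed by 0.02 to 0.07 over 3 probe sets.

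eIF5A, which despite its name acts mainly in elongation and termination, had 0 of 4 probe sets past limma's test. At an unadjusted p under 0.05, 1 was lower, against 8.55% of all probe sets. Eif5a differed by -0.07 ± 0.08 and -0.06 ± 0.08, and its paralog Eif5a2 by -0.03 ± 0.10 and -0.19 ± 0.07. At the second of these, 1438256_at, the HtrA2 KO arrays read 8.18, 8.03 and 8.07, against 8.32, 8.25 and 8.29 in WT, without overlap (adjusted p = 0.234). Eif6, which keeps the large subunit from joining too early, read 10.08, 10.16 and 10.17 in HtrA2 KO, against 9.87, 9.83 and 9.80 in WT, at its brighter probe set (0.31 ± 0.07, adjusted p = 0.0784). The dimmer one differed by 0.04 ± 0.10.

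Probe sets of 1 gene often read different amounts, and 27 of the 34 genes have several. Of the 5 genes that rose, Eif3f rose at its only probe set and the other 4 at some but not all of theirs. For 4 genes (Eif1ax, Eif3l, Eif4e2 and Eif4h) the HtrA2 KO arrays lay entirely above WT at 1 probe set or more and entirely below at another. By Affymetrix naming, the endings s and x mark probe sets whose probes can also match other transcripts, so the values of those probe sets, among them 2 of Eif3c, 2 of Eif3e and 1 of Eif1a, may include related sequences. Eif3c and Eif3e also rose at a probe set without such an ending. Where the probes lie in each transcript was not used here.

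**Figure D3:**
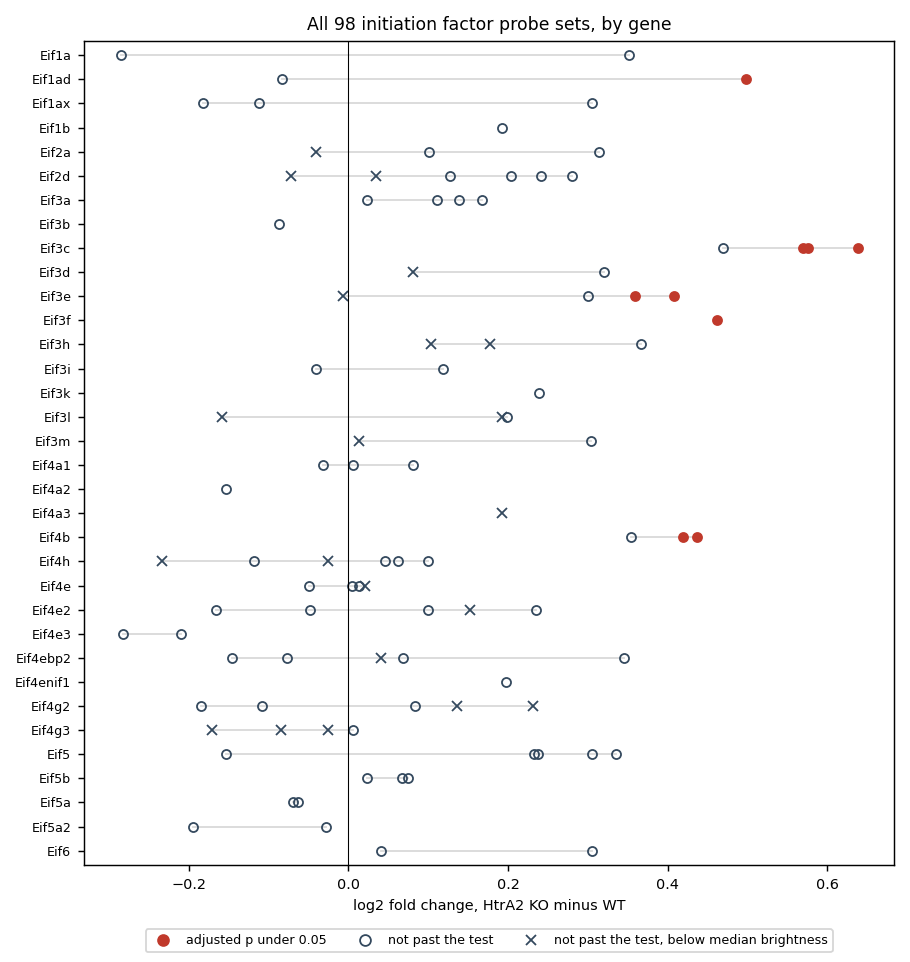
Log2 fold change (HtrA2 KO minus WT, horizontal axis) of all 98 member probe sets, 1 row per gene; filled red points have an adjusted p under 0.05, open circles do not, and crosses are probe sets below the median brightness that did not pass. Eif3c is to the right of 0 at all 4 probe sets, while Eif1a runs from -0.29 to 0.35.

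The members also differed in how evenly the 3 HtrA2 KO arrays carried the change. Averaged over the brightest probe set of the 11 eIF3 genes, the difference from the WT mean was 0.27, 0.22 and 0.32 in HtrA2 KO replicates 1, 2 and 3, against -0.01, 0.00 and 0.00 in the WT arrays. All 3 HtrA2 KO arrays were thus above WT. For Eif5 and Eif5b together the values were 0.33, -0.10 and 0.30 in HtrA2 KO, against -0.05, -0.01 and 0.06 in WT, so that HtrA2 KO replicate 2 lay below every WT array. The same array was the lowest for eIF4G (-0.29, against 0.04 and -0.02 in HtrA2 KO replicates 1 and 3) and for eIF5A (-0.19, against 0.05 and 0.00).

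**Figure D4:**
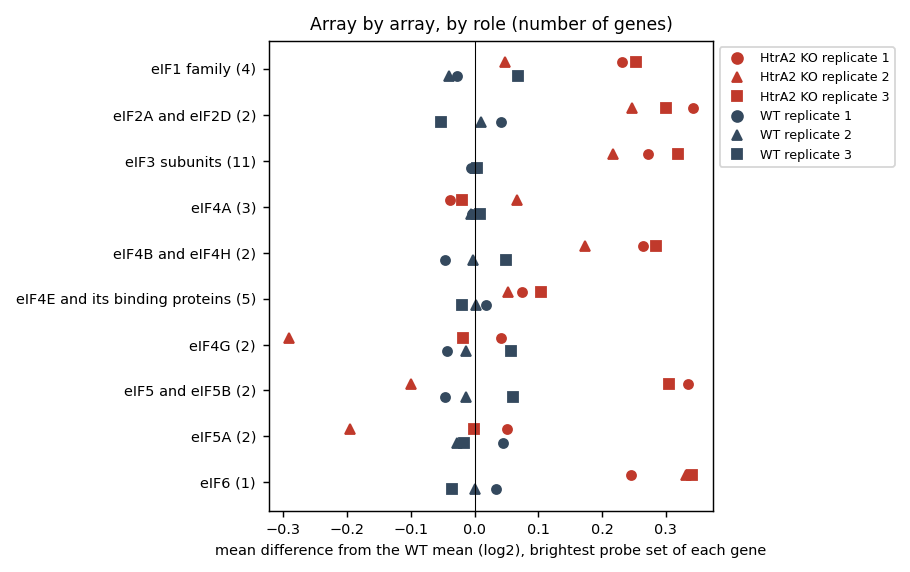
Mean difference from the WT mean (log2, horizontal axis) over the brightest probe set of each gene, by role with the number of genes in parentheses, for each HtrA2 KO array (red) and WT array (dark); shapes are replicates. HtrA2 KO replicate 2 (red triangles) is apart from the other HtrA2 KO arrays for eIF4G, eIF5 and eIF5A, and all 3 HtrA2 KO arrays lie between 0.22 and 0.32 for eIF3.

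The number of calls rests on few arrays, more than the sizes do. Without WT replicate 1, 2 or 3, and without HtrA2 KO replicate 3, 0 of the 98 probe sets passed, and the 9 had adjusted p-values of 0.0539 to 0.228. In those fits 0.155%, 0.144%, 0.238% and 0.229% of all probe sets passed in either direction, against 1.77% with all 6 arrays. Without HtrA2 KO replicate 1, 3 probe sets of Eif3c passed and 0.837% of all probe sets did, 138 of them higher and 239 lower. Without HtrA2 KO replicate 2, 18 rose in 13 genes, among them all 9 of the full fit, and 6.74% of all probe sets passed. The median change of the eIF3 genes stayed between 0.26 and 0.32 over the 6 omissions. For groups that do not overlap, no omission can turn the sign. Adding the level of Y-linked transcripts as a covariate left the 3 probe sets of Eif3c past the test and took the calls from the other 6, with changes of the same size (Eif3f 0.46, adjusted p = 0.0655).

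**Figure D5:**
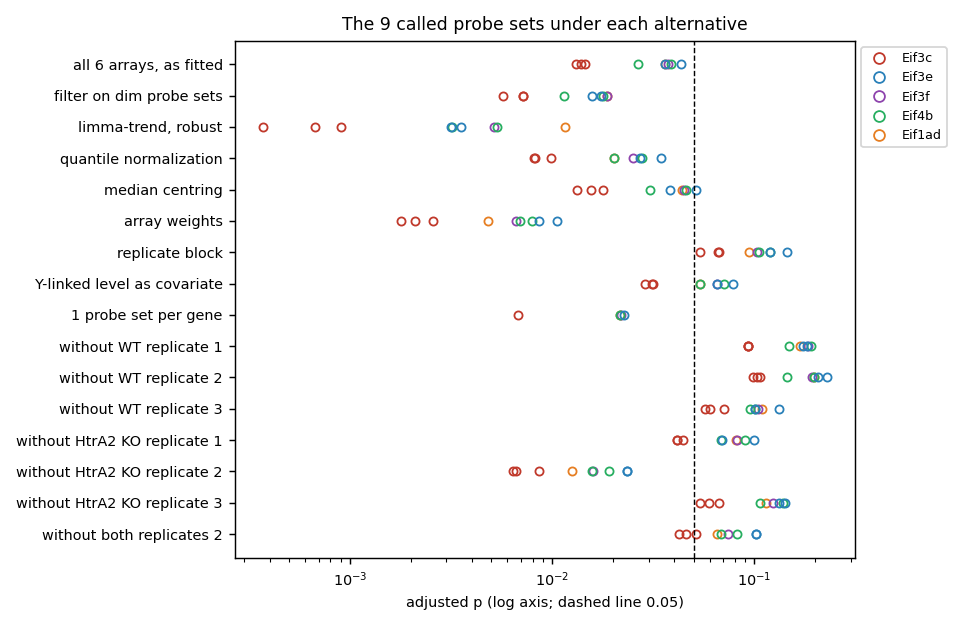
Adjusted p (horizontal log axis, dashed line at 0.05) of the 9 probe sets that rose, in the fit of all 6 arrays (top row) and under each alternative fit. Eif3c has the lowest value in every row drawn. Without any 1 of the WT arrays, and without HtrA2 KO replicate 3, all 9 lie to the right of the line. The same holds with the replicate number as a block.

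The 5 genes lie on chromosomes 7 (Eif3c and Eif3f), 15 (Eif3e and Eif4b) and 19 (Eif1ad) in the RefSeq gene annotation, and Htra2 lies on chromosome 6. Of all tested probe sets on these 3 chromosomes, 1.56%, 1.09% and 1.24% rose. Chromosome 7 holds 4 member genes with 11 probe sets, of which 4 rose. For chromosome 15 these counts were 5, 15 and 4, and for chromosome 19 they were 2, 6 and 1.

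Lists of related genes also had HtrA2 KO arrays entirely above WT at the brightest probe set more often than all named genes (15.6%). This held for 7 of 13 genes of the eIF2, eIF2B, eIF2 kinase and Eif4ebp1 list, with 0 entirely below. It held for 7 of 27 partners and regulators of initiation (3 below) and 7 of 15 elongation and termination factors (1 below). Of all 18193 named genes, 2331 lay entirely below. Whether the members differ from these lists was not tested. Among the eIF2 subunits, eIF2B subunits, eIF2 kinases and Eif4ebp1, 2 of 13 measured genes rose, 0 fell and 11 did not pass (median log2 fold change 0.15). Eif4ebp1, an eIF4E-binding repressor and known target of ATF4, rose by 0.94 ± 0.13 at 1 of its 3 probe sets (adjusted p = 0.02), with 7.73, 7.46 and 7.74 in HtrA2 KO, against 6.96, 6.65 and 6.50 in WT. Eif2s2, the beta subunit of eIF2, rose by up to 0.56 ± 0.09 (adjusted p = 0.028). Among 27 measured partners and regulators of initiation 1 gene rose, 1 fell and 25 did not pass (median 0.07). Dhps, which makes the hypusine residue of eIF5A, rose by 0.44 ± 0.08 (adjusted p = 0.0403). Gigyf2, which with eIF4E2 represses mRNAs, fell by 1.29 ± 0.15 at 1 of the 2 probe sets past the test (adjusted p = 0.0116). Of the 15 measured elongation and termination factors 0 passed by limma (median 0.09). At an unadjusted p under 0.05, 4 of their 38 probe sets were higher and 1 was lower. The shares of all probe sets were 8.33% and 8.55%. Limma-trend called 2 of the 38, and over all probe sets it called 2.04% higher and 1.89% lower. Eef2k, the kinase that inhibits elongation factor eEF2, differed by 0.48 ± 0.10 (adjusted p = 0.0593) and Eef2 by 0.23 ± 0.08 (adjusted p = 0.167). For these lists the share of all named genes that rose at any probe set was 1.64%, and the share that fell was 1.67%.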

How the data were processed

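The authors deposited log2 values of 45101 probe sets on 6 arrays. Per the submitters' processing notes they used RMA (version not given), a method that corrects background, quantile normalizes and summarizes probe sets. Base 2 was inferred from the values. RMA hides a change shared by most genes. The number of arrays limits the precision. After leaving out 64 control probe sets, HtrA2 KO was compared with WT over 45037 probe sets by limma 3.58.1 (lmFit, eBayes, two-sided, R 4.3.3) with no covariate and no filter. The fit was checked on simulated data. Probe sets were named by the platform annotation, updated by gene identifier to RefSeq (GRCm38.p6), for 34945 probe sets with 1 symbol; 932 with several and 9160 with none were not named. Values are given for member probe sets past the test, others of their genes, the smallest p of each role group, and up to 4 genes of each pathway list. Further members were added after their values were seen. Members and lists were chosen with earlier results of these data known. The labels do not say that replicate numbers pair animals, so the number was a block only as an alternative. Other alternatives were a brightness filter, limma-trend, quantile normalization, median centring, array weights, a Y-linked covariate, other thresholds, 1 probe set per gene, leaving out each array and, added after the values were seen, both replicates 2.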

Additional observations from a re-analysis of the deposited data

How the results depend on the processing

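The 9 rising and 0 falling member probe sets, and the 398 rises and 398 falls over all probe sets, stayed within 1.5 times of these counts under quantile normalization, median centring and 1 probe set per gene. The last of these tested only 18193 probe sets, 34 of them members. Its calls were 8 members and 4.17% of all probe sets, against 9 of 98 members and 1.77% in the main fit. The filter on dim probe sets left 22518, 77 of them members. Member rises, all rises and all falls were 17, 903 and 854 with the filter on dim probe sets, 17, 920 and 850 with limma-trend, 15, 1015 and 1020 at an adjusted p under 0.10, and 0, 47 and 32 under 0.01. They were 25, 2431 and 1774 with array weights, where 1 member fell (Eif4e3), and 3, 225 and 216 with the Y-linked covariate. Without both replicates numbered 2 they were 2, 245 and 69. With the replicate block they were 0, 82 and 72. Deviations of same-numbered arrays correlated at -0.20, -0.04 and -0.17, and those of differently numbered arrays at -0.06 to 0.22. Whether the numbers pair animals cannot be told from so few values. Leaving out 1 array gave 0 to 18 member rises, 40 to 2010 rises and 25 to 1027 falls over all probe sets. The causes were not tested. Leaving out 1 array turned the sign at 24 of the 98 member probe sets, all 24 with overlapping groups and none called, with full differences of -0.08 to 0.20. Of these, 2 belong to genes that rose at another probe set. The difference at 1419822_at of Eif3e ran from -0.069 to 0.054 over the omissions (0.034 without WT replicate 1, 0.054 without HtrA2 KO replicate 3). That at 1455341_at of Eif1ad ran from -0.18 to 0.0025 (the upper value without HtrA2 KO replicate 3). With 3 arrays a group, changes of the size of Eif3d or Eif3h lie at the limit of the test, and 21 member probe sets are dim.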
